A study of Homo sapiens with 5 samples.

Results

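The miR-30 family was examined in 5 human hematopoietic cell lines through the 5 probes named hsa-miR-30a, hsa-miR-30b, hsa-miR-30c, hsa-miR-30d and hsa-miR-30e, taken by name from the 654 human miRNA probes of an nCounter panel. No probe of the panel was named for a passenger (star) strand. The nCounter assay captures each miRNA with a color-coded reporter and counts the reporters without amplification. Total RNA had been extracted with TRIzol, and the labels give 100 ng as the amount carried forward. The lines were Meg-01 (megakaryoblastic), Jurkat (T-lymphoblastic), Raji (B-lymphoblastic, from a Burkitt lymphoma that carries Epstein-Barr virus), U937 (monocytic) and K562 (erythroleukemic). All are transformed lines without any stated treatment, and each was represented by 1 sample, so the lines could not be tested against each other. All intervals given are 95% intervals, exact Poisson for counts, exact binomial for shares and conditional binomial for ratios. They cover counting error only, take the scaling factors as known, and leave out variation between cultures, extractions or lanes.

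Members of the miR-30 family share a seed, the short stretch near the 5′ end that pairs with target mRNAs, and therefore share many predicted targets. Their known targets include BECN1, a regulator of autophagy repressed by miR-30a, the matrix protein gene CTGF for miR-30c, the Notch ligand gene DLL4 for miR-30b and miR-30c, and the glycosyltransferase gene GALNT7 for miR-30d. The family is expressed in many tissues, and miR-30c has served as a reference miRNA for quantitative PCR in blood cells.

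The mature sequences of miR-30a, miR-30c and miR-30e are given here as RefSeq annotates them on GRCh38.p14, with the seed (bases 2 to 8) in capitals, because the similarity of the members bears on what each probe could count:
hsa-miR-30a-5p: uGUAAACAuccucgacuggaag
hsa-miR-30c-5p: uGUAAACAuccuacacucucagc
hsa-miR-30e-5p: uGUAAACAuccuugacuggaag
miR-30a and miR-30e differed at 1 of 22 bases, C13U, with positions counted from the 5′ end of miR-30a. miR-30c differed from each of them at 5 of the 22 bases compared, and its first 12 bases were the same as theirs. All 5 probes were identified by name only, the files name each probe without an arm, and the 5p forms shown were taken from the naming convention. Any cross-hybridization between such similar members, or unequal capture by their probes, was not tested. Differences in level between members below are therefore differences between probe counts.

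The 6 genes of the family lie in pairs. MIR30E and MIR30C1 lie on the plus strand of chromosome 1, inside the span of the protein-coding gene NFYC, with 2837 bases between their hairpins. Mature miR-30e lies at chr1:40754371-40754392 and mature miR-30c at chr1:40757300-40757322. MIR30C2 and MIR30A lie on the minus strand of chromosome 6 with 26519 bases between them, giving a second source of the same mature miR-30c at chr6:71377003-71377025 and miR-30a at chr6:71403595-71403616. MIR30B and MIR30D lie within the span of ZFAT on chromosome 8, with 4268 bases between them. The miR-30c probe therefore could not separate the products of its 2 genes.

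The human probes together gave between 66892 counts (Raji) and 130048 (Jurkat). Following the methods of the study, counts were scaled between lines so that the 100 most abundant miRNAs had the same geometric mean in each, with factors from 0.741 in Meg-01 to 1.58 in Raji. A probe was called detected above the mean plus 2 SD of the 8 negative control probes of its line, which was 34.6 to 45.9 raw counts. The hematopoietic miRNAs miR-142-3p and miR-142-5p were detected in all 5 lines, the erythroid miR-451 and miR-144 in Meg-01 and K562 alone, and the lymphocyte miRNA miR-150 in Jurkat but not in Raji. Of the myeloid and megakaryocytic miRNAs, miR-223 was detected in all 5 lines and miR-126 in all but Raji, with summed counts of 93 in Raji to 5223 in Meg-01 and 831 in Jurkat. Of 11 probes for miRNAs of epithelium, liver and muscle, 1 to 5 were detected in a line, and their summed level was 329 to 397 counts. Their part in the miR-30 values was not tested.

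miR-30b was the only abundant member. Its raw count was 458 in Raji (95% interval 417 to 502), 467 in Jurkat (426 to 511), 478 in U937 (436 to 523), 581 in Meg-01 (535 to 630) and 376 in K562 (339 to 416). Meg-01 stood above the other 4 lines and K562 below them, while the intervals of Jurkat, Raji and U937 overlapped widely. Its counts were 9.99-fold to 13.8-fold the detection threshold, and it ranked between 17 and 31 among the human probes of a line.

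The other 4 members were near the background in every line, at 39 to 109 raw counts and 0.850-fold to 2.38-fold the threshold. miR-30a counted 109 in Raji, 73 in Jurkat, 47 in U937, 71 in Meg-01 and 55 in K562. Raji was the highest line for miR-30a, and its interval (89.5 to 131) overlapped only with those of Meg-01 and Jurkat, by a few counts at most. miR-30c counted 39 in Raji, 74 in Jurkat, 66 in U937, 70 in Meg-01 and 47 in K562. This put Raji at the opposite end for miR-30c, where its count fell under the threshold of 45.9 and was not detected. It passed when the mean of the negative controls was the threshold. In Raji the deposited table subtracts that same mean, and miR-30c had a signal above 0 there.

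The remaining pair moved within a narrower range. miR-30d counted 75 in Raji, 59 in Jurkat, 63 in U937, 57 in Meg-01 and 48 in K562. miR-30e counted 85 in Raji, 66 in Jurkat, 56 in U937, 76 in Meg-01 and 52 in K562. Raji was the highest and K562 the lowest line for both, and the intervals of all 5 lines overlapped for each of them.

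**Figure D1:**
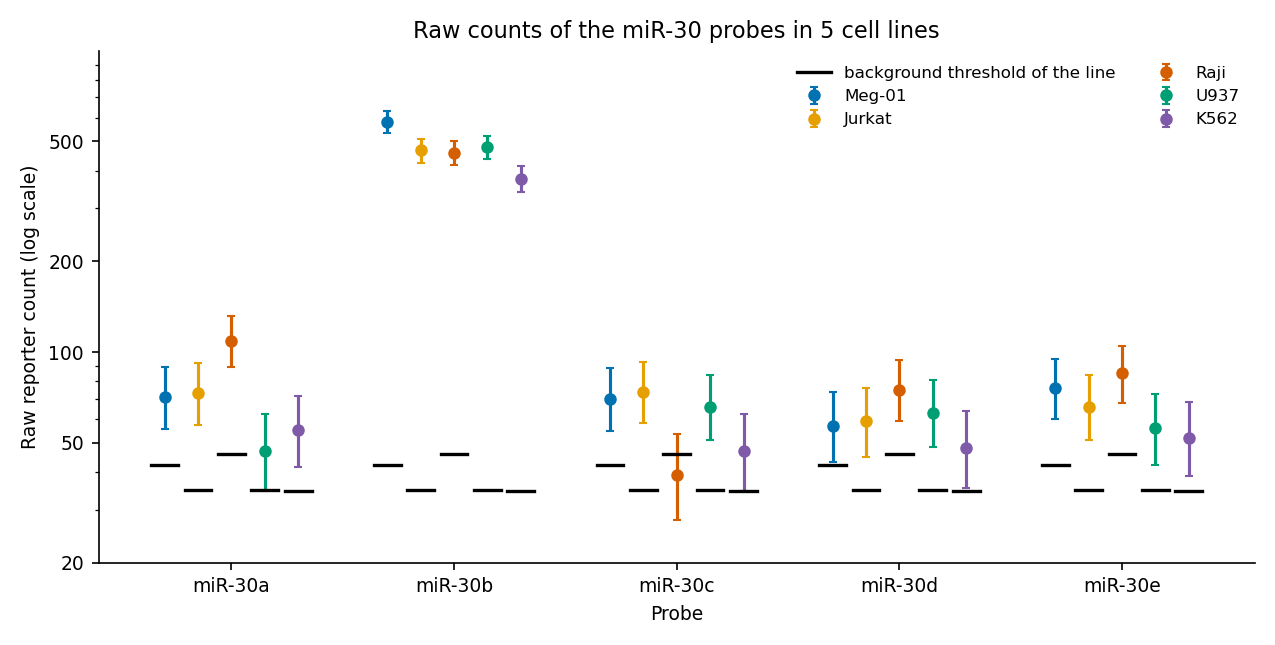
Raw reporter counts (log scale) of the 5 miR-30 probes in each cell line, with exact Poisson 95% intervals as bars and the detection threshold of each line as a black dash. miR-30b lies at 376 to 581 counts, while the other 4 probes lie at 39 to 109 counts, close to the thresholds.

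All 5 members passed the threshold in Meg-01, Jurkat, U937 and K562, and 4 passed it in Raji. The share of all human probes that passed was 17% in Raji, 35% in Jurkat, 28.3% in U937, 27.2% in Meg-01 and 27.5% in K562. In all 5 lines, 4 members were detected, as were 13.5% of the human probes. Of the 25 counts, 24 were above the threshold and 22 had their whole interval above it. The exceptions were miR-30a in U937 and miR-30c in Raji and K562. As a further measure of background, 46 probes for viruses other than Epstein-Barr virus reached at most 47 to 68 counts in a line. None of them reached miR-30b in any line, whereas 6 reached or passed miR-30c in Raji and 4 did so in K562. In K562 all 4 low members, and in Raji miR-30c alone, had counts within the range of these virus probes, as had miR-30a in U937. In Meg-01 and Jurkat, 1 virus probe reached or passed miR-30d.

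Summed over the 5 probes, the family gave 766 raw counts in Raji, 739 in Jurkat, 710 in U937, 855 in Meg-01 and 578 in K562. The highest and lowest lines differed 1.48-fold before scaling. As a share of all human counts, the sum was 1.15% in Raji (95% interval 1.07 to 1.23), 0.568% in Jurkat (0.528 to 0.611), 0.755% in U937 (0.701 to 0.813), 0.779% in Meg-01 (0.728 to 0.833) and 0.549% in K562 (0.506 to 0.596). Raji was highest by this share, Meg-01 and U937 were alike within counting error, and so were Jurkat and K562.

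After scaling and before subtraction of the background, the family sum was 1209 in Raji, 595 in Jurkat, 741 in U937, 634 in Meg-01 and 707 in K562. Raji exceeded the next line, U937, 1.63-fold (95% interval 1.47 to 1.81). Below Raji, U937 over K562 was 1.05-fold (0.938 to 1.17), K562 over Meg-01 1.12-fold (1.002 to 1.24) and Meg-01 over Jurkat 1.07-fold (0.964 to 1.18). Of these 3 steps between neighbors, only K562 over Meg-01 had an interval that left out 1, and barely. With the threshold subtracted, the sum ran from 454 in Jurkat to 858 in Raji, a 1.89-fold range.

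The first place of Raji rested on the choice of scaling, and its rank elsewhere also on the subtraction. Raji had the fewest human counts and the largest factor. It was the highest line when counts were scaled to the most abundant miRNAs or to the sum of human probes. Before subtraction it ranked 2 of the 5 lines with no scaling (after Meg-01) or with scaling to the positive controls (after U937), and 3 with scaling to the housekeeping mRNA probes. With the threshold subtracted these ranks were 3, 3 and 4. Which of these scalings matches the amount of miR-30 per cell was not tested.

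**Figure D2:**
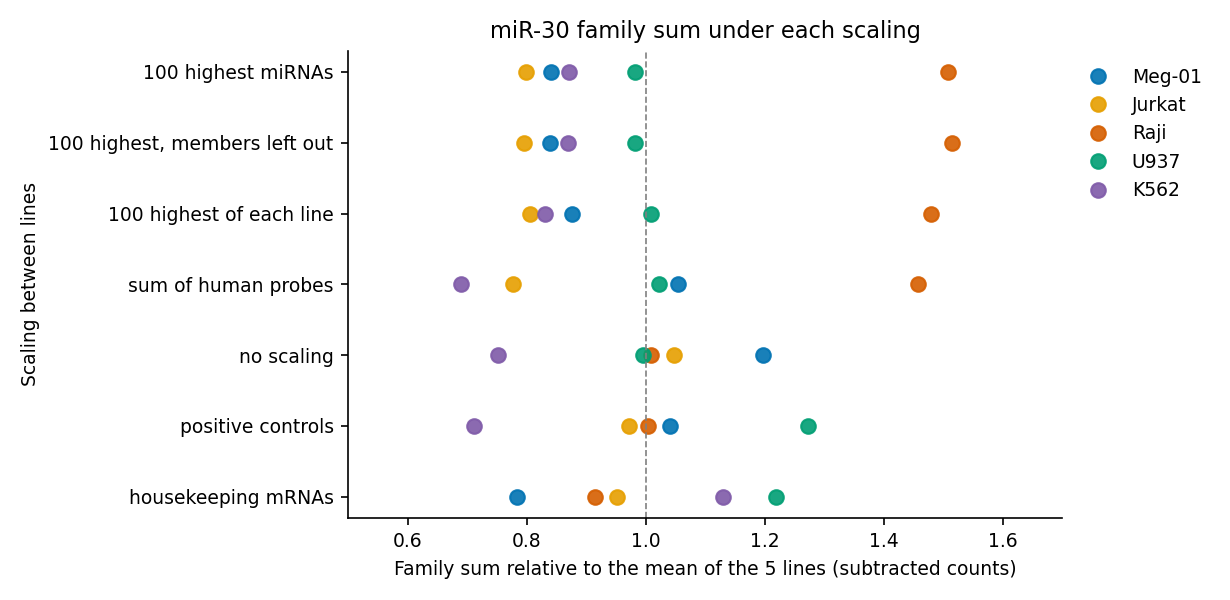
Sum of the 5 miR-30 probes in each line, relative to the mean of the 5 lines, under 7 scalings between lines (threshold-subtracted counts). Raji lies at 1.46 to 1.51 in the upper 4 settings and at 0.915 to 1.01 in the lower 3.

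The composition of the family does not depend on the scaling. miR-30b made up 59.8% of the raw family counts in Raji, 63.2% in Jurkat, 67.3% in U937, 68.0% in Meg-01 and 65.1% in K562. It was the dominant member in every line, and subtracting the threshold raised its share to between 75.8% and 84.3%, since each low member lost a large part of its count. The other members held similar raw shares in Meg-01, Jurkat, U937 and K562, each between 6.62% and 10.01% of the raw family counts. With the threshold subtracted, their shares in these lines ran from 2.26% (miR-30a in U937) to 6.91% (miR-30c in Jurkat). miR-30a was then 6.74% in Jurkat, and miR-30d was 2.31% in Meg-01 and 5.25% in U937.

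Raji had a different balance among the low members. miR-30a made up 14.2% of the family in Raji (95% interval 11.8 to 16.9), against 6.62% to 9.88% in the other lines. miR-30c made up 5.09% in Raji (3.65 to 6.89), against 8.13% to 10.01% elsewhere. Counting intervals of these shares overlapped for miR-30a in Raji, Jurkat and K562, and for miR-30c in Raji, Meg-01 and K562. miR-30d (9.79%) and miR-30e (11.1%) also had their highest share in Raji, with intervals that overlapped those of other lines.

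**Figure D3:**
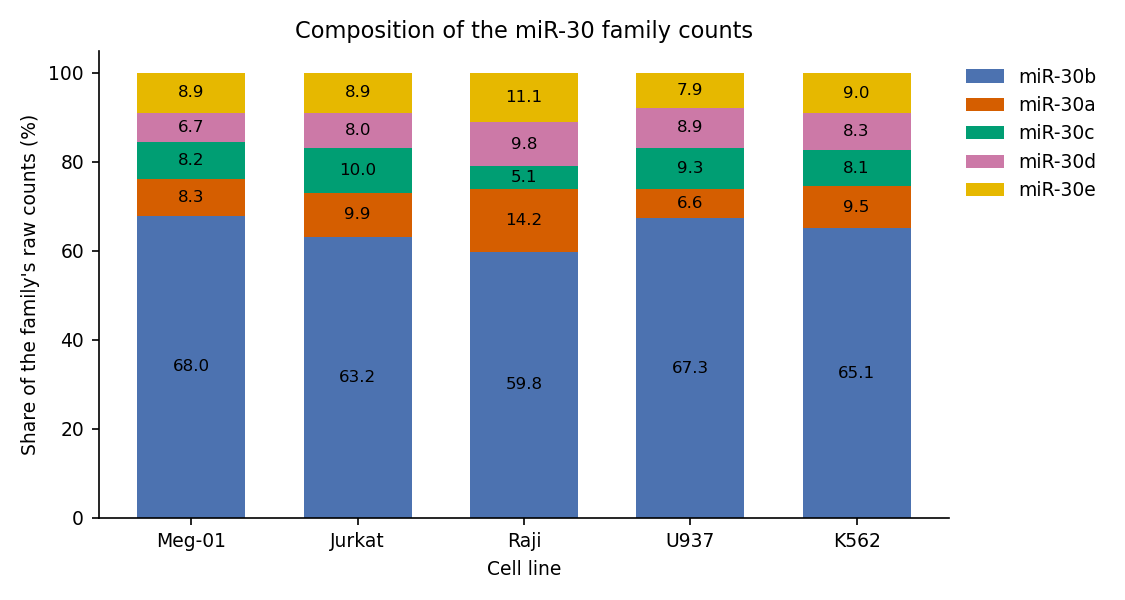
Share of each miR-30 probe in the raw counts of the family, per cell line (stacked bars, percent). miR-30b holds 59.8% to 68.0% in each line, and Raji has the largest share of miR-30a (14.2%) and the smallest of miR-30c (5.09%).

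Ratios of members within a line are likewise free of the scaling. miR-30a over miR-30c, whose genes MIR30A and MIR30C2 are neighbors on chromosome 6, was 2.79 in Raji, 0.986 in Jurkat, 0.712 in U937, 1.01 in Meg-01 and 1.17 in K562. The interval in Raji (1.92 to 4.14) lay above those of the other 4 lines, whose upper ends reached 1.77 at most. Because miR-30c was not detected in Raji, this ratio compares a detected probe with one at background. After subtraction the ratio was 0.974 in Jurkat, 0.390 in U937, 1.04 in Meg-01 and 1.65 in K562, and could not be formed in Raji.

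miR-30e over miR-30c, whose genes MIR30E and MIR30C1 are neighbors on chromosome 1, was 2.18 in Raji, 0.892 in Jurkat, 0.848 in U937, 1.09 in Meg-01 and 1.11 in K562. Raji was again the highest line, though its interval (1.48 to 3.27) overlapped those of Meg-01 and K562, and the ratio again sets a detected probe against miR-30c at background. In the lines other than Raji, the interval of each of these ratios included 1. By contrast, miR-30a over miR-30e, the members that differ at 1 base, was between 0.839 and 1.28 in raw counts, and the intervals of all 5 lines included 1. After subtraction miR-30a over miR-30e was 0.574 to 1.61, and miR-30e over miR-30c was 0.679 to 1.40 in the lines other than Raji.

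miR-30b over miR-30d, the pair from within ZFAT, was 6.11 in Raji, 7.92 in Jurkat, 7.59 in U937, 10.2 in Meg-01 and 7.83 in K562. Only the intervals of Meg-01 (7.76 to 13.6) and Raji (4.77 to 7.90) lay nearly apart, with an overlap of a fraction of a unit. Products of neighboring genes thus gave counts that differed severalfold in every line for this pair. After subtraction the ratio was 14.1 to 36.2, so its size depended on how the background was treated.

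**Figure D4:**
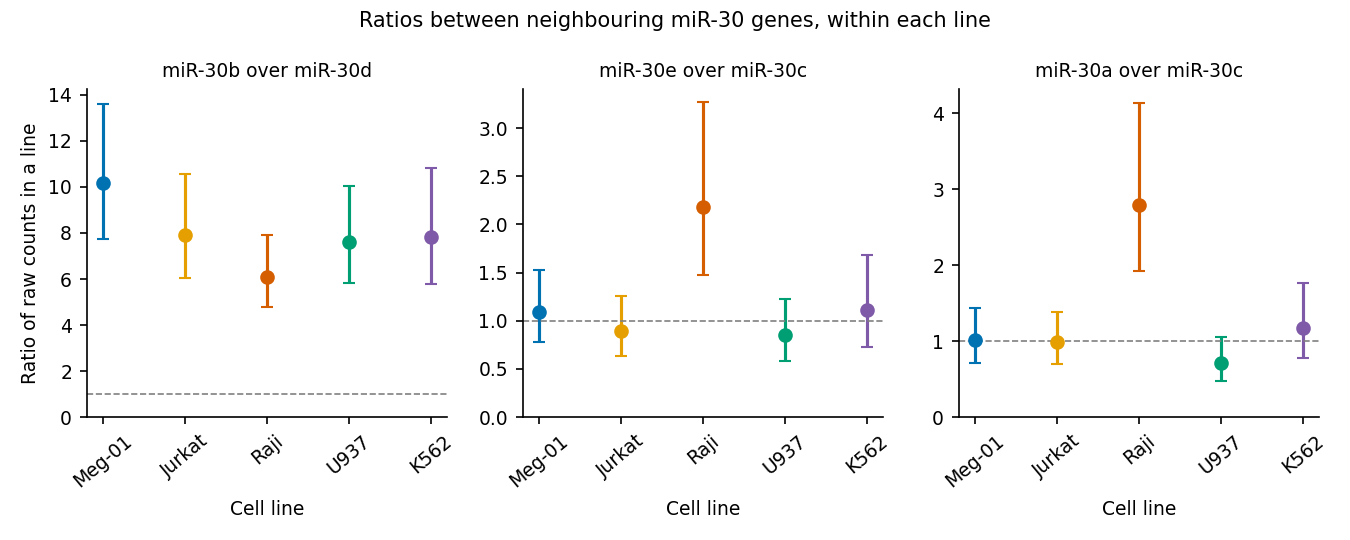
Ratio of raw counts between 3 pairs of miR-30 members within each line, with conditional binomial 95% intervals as bars and a dashed line at a ratio of 1. Raji stands highest for miR-30e over miR-30c (2.18) and miR-30a over miR-30c (2.79), and lowest for miR-30b over miR-30d (6.11).

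Next, it was counted how often a member separated a pair of lines on scaled counts before subtraction. Over the 10 pairs of lines, the 5 members gave 50 comparisons, of which 21 had an interval that left out a ratio of 1, against 70.3% of the comparisons over the 88 probes detected in all 5 lines. The 20 member comparisons that involved Raji held 16 of these (79.3% over the 88 probes), and the 30 without Raji held 5 (64.4% over the 88 probes). miR-30c, which is not one of the 88 probes, held 10 of the 50 comparisons, 4 of them with Raji, and 0 of these left out 1. For each of the other 4 members, all 4 pairs with Raji left out 1. Of their 6 pairs without Raji, this was so in 4 for miR-30b, 1 for miR-30d and 0 for miR-30a and miR-30e. The low counts of 4 members make their intervals wide, and the shares were not tested against those of the panel.

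Per member, miR-30b had 8 of its 10 pairs resolved, with 723 scaled counts in Raji, 499 in U937, 460 in K562, 431 in Meg-01 and 376 in Jurkat. Raji over U937 was 1.45-fold (95% interval 1.27 to 1.65), whereas U937 and K562, and K562 and Meg-01, did not differ beyond counting error. Meg-01 over Jurkat was 1.15-fold (1.01 to 1.296).

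For miR-30a, miR-30d and miR-30e, the step below Raji was the only resolved step between neighbors. Scaled miR-30a was 172 in Raji and 49.0 to 67.3 in the other lines, and Raji over K562 was 2.56-fold (1.83 to 3.61). Scaled miR-30d was 118 in Raji and 42.3 to 65.7 elsewhere, and Raji over U937 was 1.80-fold (1.27 to 2.56). Scaled miR-30e was 134 in Raji and 53.2 to 63.6 elsewhere, and Raji over K562 was 2.11-fold (1.48 to 3.04). miR-30c had no resolved pair, with 51.9 to 68.9 scaled counts and a ratio of 1.33 (0.933 to 1.88) between U937 and Meg-01, its extremes. In raw counts, however, its interval in Raji (27.7 to 53.3) lay below those of Jurkat (58.1 to 92.9) and Meg-01 (54.6 to 88.4). Without scaling Raji remained the highest line for miR-30a, miR-30d and miR-30e, while Meg-01 was highest for miR-30b. For miR-30d and miR-30e, the raw interval of Raji overlapped widely with that of the next line. For miR-30d it was 59.0 to 94.0 in Raji and 48.4 to 80.6 in U937. For miR-30e it was 67.9 to 105 in Raji and 59.9 to 95.1 in Meg-01. The resolved steps below Raji given above for miR-30d and miR-30e therefore hold for scaled counts only. With scaling to the positive controls or the housekeeping probes, U937 was highest for miR-30b and miR-30d, and with the latter K562 was highest for miR-30e before subtraction and Raji after it.

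The direction of the Raji difference was compared with that of the panel. In raw counts, Raji over the geometric mean of the other 4 lines was 1.80 for miR-30a, 1.37 for miR-30e, 1.33 for miR-30d, 0.975 for miR-30b and 0.616 for miR-30c. The median of the 88 probes detected in all 5 lines was 0.843, so 4 members lay above the panel median and miR-30c below it. By this ratio, 5 of the 88 probes exceeded miR-30a, 9 exceeded miR-30e, 10 exceeded miR-30d, 29 exceeded miR-30b and 58 exceeded miR-30c. All 4 members detected in all 5 lines had their highest scaled count in Raji, as did 44.3% of the 88 probes.

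The range across lines was set against that of the panel. Between the highest and lowest line, scaled counts spanned 3.51-fold for miR-30a, 2.80-fold for miR-30d, 2.52-fold for miR-30e, 1.92-fold for miR-30b and 1.33-fold for miR-30c. The median of the 88 probes was 2.53-fold, below miR-30a and miR-30d. These members fell below the panel median without scaling (2.32-fold and 1.56-fold, median 2.43-fold), with positive controls (2.08-fold and 1.77-fold, median 2.36-fold) and with housekeeping probes (2.13-fold and 2.07-fold, median 3.06-fold). Of the 4 members detected in all 5 lines, 3 spanned more than 2-fold, as did 80.7% of the 88 probes. On raw counts 1 of the 4 did, against 61.4% of the 88 probes. After scaling and subtraction of the threshold the count was 3 of 4, against 81.8% of the 88 probes, with 7.88-fold for miR-30a, 4.16-fold for miR-30d, 2.91-fold for miR-30e and 1.87-fold for miR-30b beside a median of 4.41-fold. The miR-30a value has U937 as its lowest line, where the interval reached the threshold. Without Raji the subtracted range was 2.42-fold for miR-30a, 2.66-fold for miR-30d and 1.18-fold for miR-30e, and without U937 it was 4.65-fold for miR-30a. Over the 10 alternatives in scaling, threshold and source it went from 3.29-fold to 7.91-fold for miR-30a, from 2.05-fold to 4.59-fold for miR-30d and from 1.5998-fold to 3.54-fold for miR-30e. For comparison, before subtraction the family sum spanned 2.03-fold, the sum of the 3 miR-29 probes 4.27-fold and that of the 9 let-7 family probes (with miR-98) 11.04-fold. After subtraction these were 1.89-fold, 4.84-fold and 16.7-fold.

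**Figure D5:**
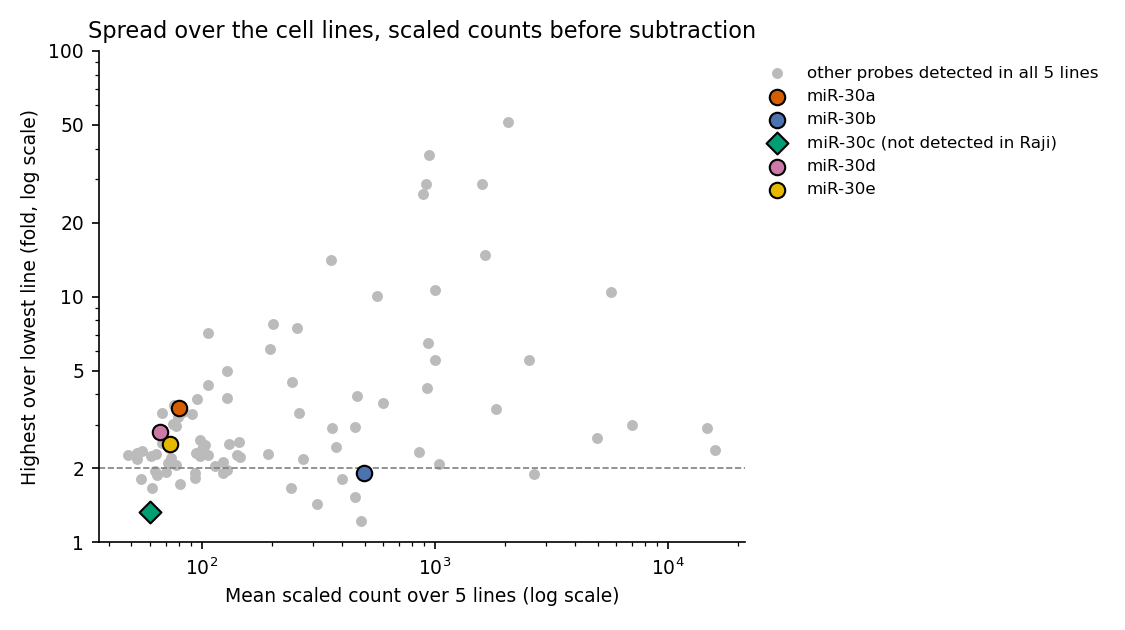
Highest over lowest line (fold, log scale) against the mean scaled count over the 5 lines (log scale) for the 88 probes detected in all 5 lines and for miR-30c, with a dashed line at 2-fold. With this scaling miR-30b (1.92-fold) lies below most probes, and miR-30a (3.51-fold) above the panel median of 2.53-fold, which it does not with no scaling, positive controls or housekeeping probes.

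By scaled counts before subtraction, miR-30b and miR-30c varied least among the members. The coefficient of variation (SD over mean, n = 5 lines) was 26.9% for miR-30b, where counting error alone gives 4.64%, and 9 of the 88 probes had a lower value. It was 10.3% for miR-30c, where counting error gives 13.3%. miR-30c is not one of the 88 probes, since its count in Raji was not above background, so this value describes probe counts that include background and not a steady level of the miRNA. In raw counts the order turned, with 15.5% for miR-30b and 25.9% for miR-30c. The range of miR-30c also moved with the scaling. It was 1.33-fold with the 100 highest miRNAs, 1.57-fold with the sum of human probes, 1.90-fold without scaling, 2.18-fold with positive controls and 2.29-fold with housekeeping probes, and in these last 3 cases Raji was its lowest line.

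The profiles most like miR-30b were found among the 87 other probes detected in all 5 lines, by the root mean square difference of centered log2 scaled counts over the 5 lines. The nearest was miR-26b (0.15), followed by the shared probe of miR-526a, miR-518d-5p and miR-520c-5p (0.16), miR-544 (0.17), miR-383 (0.17) and miR-518f (0.18), against a median of 0.50. miR-30e was in place 13 (0.22), miR-30d in place 15 (0.23) and miR-30a in place 38 (0.42).

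The raw counts of the nearest probe varied less than those of miR-30b. miR-26b counted 58 in Raji, 60 in Jurkat, 59 in U937, 63 in Meg-01 and 56 in K562. All 5 nearest probes, and 4 of the 5 miR-30 members, varied less before scaling than after it, as did 65.9% of the 88 probes. For miR-30b the root mean square of its log2 profile was 0.20 before scaling and 0.32 after it, while that of the scaling factors alone was 0.40. The likeness of these profiles therefore includes the factors that all probes of a line share.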

How the data were processed

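The authors deposited raw counts of 753 nCounter probes for each of the 5 lines, neither normalized nor background-subtracted, and, for the 654 human probes, a signal table. Its entries are raw counts less a constant per line, with negative values at 0, and served as an alternative. This constant matched the negative control mean in Meg-01, Raji and U937, but not in Jurkat (16.25 against 22.75) or K562 (22.75 against 20.25). In the methods, 2 kit versions and nSolver are named, and the version behind these lines is not given in the sources used here.

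Raw counts of each line were multiplied by a factor that equalized the geometric mean over 100 miRNAs, those with the highest mean count over the lines (miR-30b was 1 of them). The threshold was the mean plus 2 SD of the 8 scaled negative controls, and was subtracted where stated. Summed human counts were 66892 to 130048 per sample. Log2 profiles were centered per probe. Members, lists and tests were chosen with earlier results of these data known, and the probes named beside the members were the 5 nearest profiles and fixed marker lists. The calculations were tested on simulated data, where the ratio intervals were checked with the scaling factors known. That check cannot tell which scaling suits the real lines. With 1 sample per line, nothing was tested between lines. Alternatives covered the scaling, the threshold, the subtraction and the deposited signals. Sequences and gene positions come from RefSeq (GRCh38.p14). Python 3.11.15, numpy 2.4.6, scipy 1.17.1, pandas 2.3.3 and matplotlib 3.10.9 were used.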

Additional observations from a re-analysis of the deposited data

How the results depend on the processing

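The number of members detected in Raji rose from 4 to 5 with the deposited signals and with the mean of the negative controls, where miR-30c passed. These settings are not separate checks in Raji, Meg-01 and U937, where the deposited constant matched that mean. The range of the family sum over the lines, 1.89-fold (Raji over Jurkat), became 1.62-fold with the deposited signals and 1.59-fold without scaling (Meg-01 over K562 in both), and 1.56-fold with housekeeping probes (U937 over Meg-01). It was 1.79-fold to 2.11-fold under the other 7 alternatives, but not always between the same lines. It was U937 over K562 with positive controls (1.79-fold) and Raji over K562 with the sum of human probes (2.11-fold). With the highest negative control as the threshold it was Raji over Meg-01 (1.81-fold), and otherwise Raji over Jurkat. Raji, ranked 1 by the subtracted family sum, ranked 3 with the deposited signals, 3 without scaling, 3 with positive controls and 4 with housekeeping probes, and 1 under the other 6. Before subtraction it ranked 2 without scaling, 2 with positive controls and 3 with housekeeping probes. Leaving out each line in turn, a choice made after seeing the data, gave 1.23-fold to 1.89-fold, with the lowest value without Raji (U937 over Jurkat). The miR-30b share of the subtracted family sum, 75.8% in Raji, 76.6% in Jurkat, 82.7% in U937, 83.6% in Meg-01 and 84.3% in K562, was in the same order 66.9%, 68.5%, 75.5%, 74.4% and 76.1% with the deposited signals, 66.9%, 71.1%, 75.5%, 74.4% and 74.6% with the mean of the negative controls as the threshold, and 59.8%, 63.2%, 67.3%, 68.0% and 65.1% without subtraction. Less is subtracted in each of these 3 settings. Shares and ratios within a line, and the rank of miR-30b among the probes of a line, cannot change with the scaling by construction. No paired analysis was possible because each line had 1 sample. The low members had raw counts of 39 to 109. On scaled counts before subtraction, miR-30a, miR-30d and miR-30e were resolved beyond counting error only in pairs with Raji, except miR-30d in U937 over Meg-01 (1.56-fold). On these counts miR-30c was resolved in no pair.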
